A study of Salix viminalis with 12 samples.

Results

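WRKY transcription factors were searched for in the annotated root transcriptome of *Salix viminalis*, the common osier. Members were the contigs whose description or gene symbol contained "WRKY" in any case, and they were grouped by their Arabidopsis gene code without its dot suffix. There were 184 such contigs among the 86843 contigs of the assembly, or 0.212% of all contigs and 0.287% of the 64173 contigs with a code. They were predicted on 181 parent transcripts and matched 42 of the 13764 Arabidopsis genes found in the transcriptome (0.305%). Both the name of the family and the number of each member therefore come from the closest Arabidopsis gene and not from the willow sequence itself.

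WRKY factors are plant proteins named after a short amino acid motif in their DNA-binding domain, which is followed by a zinc finger and binds W-box elements in promoters. Group I members carry a pair of WRKY domains, group II members carry a single domain and are divided into subgroups IIa to IIe, and group III members have another type of zinc finger. In Arabidopsis the family is best known for its part in the response to pathogens, and in roots some members control phosphate supply, root hairs and the response to metals. Many members are activated by mitogen-activated protein (MAP) kinase cascades or bind proteins with a VQ motif.

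The transcriptome was assembled from 12 libraries of 150 bp paired reads, in 4 groups of 3 libraries. All plants were cuttings of the same *S. viminalis* individual, so that the study describes the roots of a single clone. CT (control soil, temperate) and CC (control soil, cold-acclimated) plants grew in a mixture of potting soil and sand, whereas the soil of MT (metal-polluted, temperate) and MC (metal-polluted, cold-acclimated) plants also contained zinc (500 ppm), copper (175 ppm), nickel (30 ppm) and cadmium (1.5 ppm). The metals had been present for 40 days when the temperature treatment of 4 weeks began. Temperate plants were kept at 23 °C by day and 20 °C at night and cold-acclimated plants at 7 °C and 5 °C according to the growth protocol, while the treatment labels read 22 °C and 4 °C. The table analysed here has 5 columns of names and text, of which 0 hold a value per library. The depth of each library cannot be read from it, the labelled tissue could not be checked against marker levels, and no WRKY factor was compared between CT, CC, MT and MC. The number of contigs matched to a gene is a property of the pooled assembly. It counts assembled variants, fragments and related willow genes together, it is not a level of expression, and it has no replicates and no error. Differences between the counts are given below as descriptions without a test.

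Over the 3 assemblies together, most Arabidopsis WRKY genes found in the roots were matched by several contigs. The median was 4 contigs per gene (quartiles 2 and 6, mean 4.38), and 38 of the 42 genes (90.5%) had more than 1 contig. Over all 13764 genes the median was 3 contigs (quartiles 2 and 5), and 77.7% had more than 1. Within an assembly the share with more than 1 contig was lower among the WRKY genes found there. It was 67.6% in the first Trinity assembly, 45.5% in the second and 33.3% in the CLC assembly, and the median was 2, 1 and 1. The same values over all genes are not given for each assembly. At the upper end, 3 WRKY genes (7.14%) had 10 contigs or more, against 8.74% of all genes. The family thus had few genes with only 1 contig, and its share with 10 contigs or more was near that of all genes. Its maximum of 11 over 42 genes cannot be set against the maximum of 525 over 13764 genes, as the sets differ in size.

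WRKY2 (AT5G56270), which in Arabidopsis sets the polarity of the zygote, had the most contigs of the family. Its 11 contigs comprised 7 of the first Trinity assembly, 3 of the second Trinity assembly and 1 of the CLC assembly, and 798 genes of the transcriptome had more. WRKY20 (AT4G26640) had 10 contigs, with 6, 3 and 1 in the same assemblies. WRKY75 (AT5G13080), an activator of the phosphate starvation response and a regulator of root hairs, also had 10, spread more evenly as 4, 3 and 3. For both, 948 genes had more contigs. WRKY6 (AT1G62300), which represses the phosphate exporter gene PHO1 and acts in senescence, had 9 contigs, 3 from each assembly.

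A further 3 genes had 8 contigs each. They were WRKY44 (AT2G37260, also named TTG2, a regulator of trichomes and of tannin in the seed coat), WRKY7 (AT4G24240, a calmodulin-binding repressor of basal defence) and WRKY11 (AT4G31550, another repressor of basal defence). WRKY44 and WRKY11 both had 4 contigs of the first Trinity assembly, 1 of the second and 3 of the CLC assembly, whereas WRKY7 had 1, 5 and 2. WRKY11 was matched through 2 gene models, with 6 contigs for one and 2 for the other, and was the only WRKY gene with more than 1 model. WRKY40 (AT1G80840), a repressor of basal defence and of the response to abscisic acid (ABA), had 7 contigs, 6 of the first Trinity assembly and 1 of the CLC assembly. WRKY21 (AT2G30590) and WRKY35 (AT2G34830) had 7 contigs as well. Together these 10 genes held 85 of the 184 WRKY contigs (46.2%).

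At the lower end, 4 genes had 1 contig, each of the CLC assembly. These were WRKY18 (AT4G31800), which binds WRKY40 in Arabidopsis, WRKY43 (AT2G46130), WRKY50 (AT5G26170), which acts in the jasmonate response under low oleic acid, and WRKY24 (AT5G41570). The heterodimer partners WRKY40 and WRKY18 thus had 7 contigs and 1 contig, but the 6 Trinity contigs of WRKY40 lay in 1 component. A further 8 genes had 2 contigs, 7 genes had 3, 10 genes had 4 and 3 genes (WRKY57, WRKY33 and WRKY32) had 6.

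**Figure D1:**
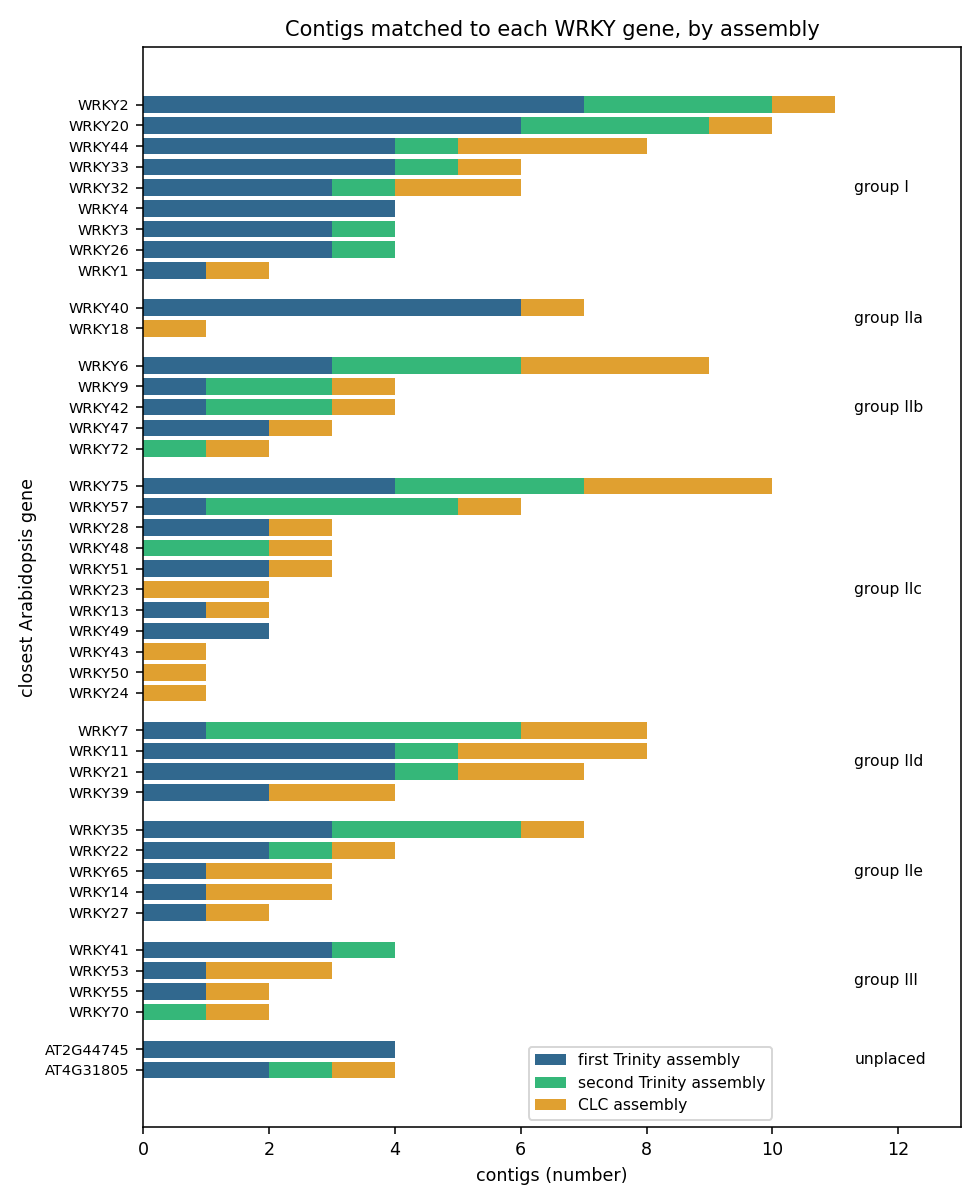
Contigs matched to each of the 42 WRKY genes, in WRKY groups from top to bottom, with the number of contigs on the horizontal axis and the colour of each bar segment giving the assembly. The longest bar is WRKY2 with 11 contigs, and the 4 bars of 1 contig hold CLC contigs only.

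By number, 40 of the 72 numbered Arabidopsis WRKY members (55.6%) were found and 32 were not. The other 2 codes, AT2G44745 and AT4G31805, were described as WRKY family transcription factors without a symbol. Members were placed in groups by number, so these 2 codes were left unplaced. Their place in the family rests on that description alone, which may not hold, in particular for AT4G31805, and without them there were 176 contigs of 40 genes. Each had 4 contigs. All 4 of AT2G44745 lay in the same Trinity gene of the first Trinity assembly, and those of AT4G31805 were 2, 1 and 1 in the 3 assemblies. An unnumbered code can belong to a member that is counted as not found, so 32 is an upper count. AT2G44745 in particular may be a numbered member under another annotation. The numbers of members found per group and per role below are for the same reason lower counts. A member that was not found may also have no close counterpart in willow, may have been assigned to a related code, or may not have been assembled from roots, and the table cannot tell these apart.

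Over the 3 assemblies together, group I, whose members carry a pair of domains, held the most contigs. The order turned in the CLC assembly alone, where group I had 17.3% of the contigs and subgroup IIc 25.0%. Together group I had 55 of the 184 contigs (29.9%), from 9 of its 15 members, with a median of 6 contigs and a range of 2 to 11. Besides WRKY2, WRKY20 and WRKY44 it contained WRKY33 (AT2G38470), which activates camalexin synthesis against *Botrytis*, and WRKY32 (AT4G30935), with 6 contigs each. WRKY3 (AT2G03340) and WRKY4 (AT1G13960), which act against necrotrophic fungi, and WRKY26 (AT5G07100), which acts in heat and salt responses, had 4 contigs each. WRKY1 (AT2G04880) had 2 contigs and was the only member found by symbol alone, because its description reads zinc-dependent activator protein-1. The members without a contig were WRKY10, WRKY19, WRKY25, WRKY34, WRKY45 and WRKY58. WRKY45 was placed in group I by the list used, and subgroup IIc was tried as an alternative. WRKY25, the heat response factor most often named with WRKY26 and WRKY33, was thus the one of these 3 that no contig carried.

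In group II, subgroup IIc had 34 contigs (18.5%) from 11 of 17 members, but a median of only 2. WRKY75 had 10 of these contigs and WRKY57 (AT1G69310), which acts in drought tolerance, had 6 (1, 4 and 1 in the 3 assemblies), while the other 9 genes had 1 to 3. Among them were WRKY28 (AT4G18170, an activator of salicylic acid synthesis) with 3 contigs, WRKY23 (AT2G47260, an auxin-responsive regulator of roots) with 2, and WRKY13 (AT4G39410) with 2. WRKY13 activates the cadmium exporter gene PDR8 in Arabidopsis. WRKY48 (AT5G49520) and WRKY51 (AT5G64810) had 3 contigs each, and WRKY49 had 2. WRKY8, WRKY12, WRKY56, WRKY59, WRKY68 and WRKY71 were not found by number.

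Subgroup IId had the highest median, 7.5 contigs, with 27 contigs (14.7%) from 4 of 7 members. Its members bind calmodulin. WRKY7 and WRKY11 had 8 contigs each, WRKY21 had 7 and WRKY39 (AT3G04670), which acts in the heat response, had 4. WRKY17, which represses basal defence with WRKY11 in Arabidopsis, was not found, nor were WRKY15 and WRKY74.

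Subgroup IIb had 22 contigs (12.0%) from 5 of 8 members. WRKY6 had 9 of them, WRKY9 (AT1G68150) and WRKY42 (AT4G04450) had 4 each, WRKY47 (AT4G01720) had 3 and WRKY72 (AT5G15130) had 2. WRKY42 acts with WRKY6 on phosphate supply, WRKY47 in boron and aluminium responses, and WRKY72 in defence against nematodes. Subgroup IIe had 19 contigs (10.3%) from 5 of 8 members, led by WRKY35 with 7. WRKY14 (AT1G30650) and WRKY65 had 3 contigs each and WRKY27 had 2. WRKY22 (AT4G01250) had 4 contigs, whereas WRKY29, which acts beside it after perception of bacterial flagellin, had none. Subgroup IIa had 8 contigs (4.35%) from WRKY40 and WRKY18, and WRKY60, the remaining partner of this trio, was not found.

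Group III had the lowest share of members found. Only 4 of its 14 members (28.6%) were matched, whereas the share was 57.1% to 66.7% in each of the other groups. It had 11 contigs (5.98%), with 2 to 4 per gene. WRKY41 (AT4G11070) had 4 contigs, WRKY53 (AT4G23810), a regulator of leaf senescence, had 3, and WRKY70 (AT3G56400), which balances salicylic acid and jasmonate defence, and WRKY55 (AT2G40740) had 2 each. Absent by number were WRKY30, WRKY38, WRKY46, WRKY52, WRKY54, WRKY62, WRKY63, WRKY64, WRKY66 and WRKY67. WRKY54, which acts with WRKY70, and the pair WRKY38 and WRKY62, which repress basal defence, were among them. Arabidopsis also has 3 members fused to resistance proteins, WRKY16, WRKY19 and WRKY52, and 0 of these 3 were matched.

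**Figure D2:**
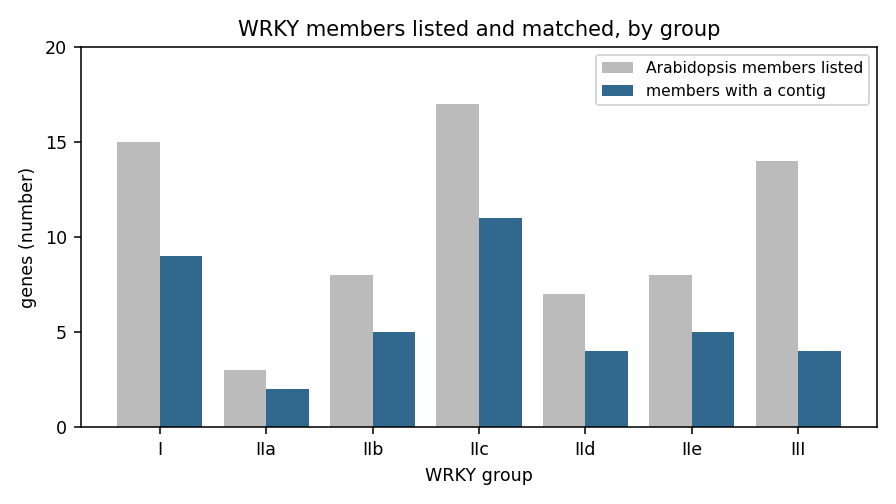
Number of numbered Arabidopsis members listed (grey) and of those with a contig (blue), for each WRKY group. Group III stands apart with 4 of 14 members, and the other bars reach 57.1% to 66.7% of the members listed.

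Grouped by their best-known role in Arabidopsis, the 25 members listed for immunity had 15 found, with 60 contigs and a median of 4 per gene. Of the 6 members listed for nutrition and roots 4 were found (WRKY6, WRKY23, WRKY42 and WRKY75), with 25 contigs and a median of 6.5. WRKY45 and WRKY46 of this list, which control phosphate uptake and malate efflux, were not. Of the 8 members listed for abiotic stress, WRKY1, WRKY26, WRKY39, WRKY47 and WRKY57 were found, with 19 contigs and a median of 4. The development list gave 3 of 7 members (WRKY2, WRKY13 and WRKY44), with 21 contigs and a median of 8. The remaining 26 members had no role assigned, and 13 of them were found with 51 contigs.

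The contigs kept from the 3 assemblies did not cover the same members. The first Trinity assembly held 90 WRKY contigs (48.9%) of 34 genes, the second Trinity assembly 42 (22.8%) of 22 genes, and the CLC assembly 52 (28.3%) of 36 genes. Among all contigs with a code the shares were 52.9%, 21.4% and 25.8%. In all 3 assemblies 16 of the 42 genes (38.1%) were found, against 25.9% of all genes, 18 were found in 2 assemblies and 8 in 1 assembly. Those in 1 assembly were WRKY18, WRKY23, WRKY24, WRKY43 and WRKY50 in the CLC assembly and WRKY4, WRKY49 (AT5G43290) and AT2G44745 in the first Trinity assembly. Of the 5 genes with CLC contigs only, 4 belonged to subgroup IIc. Group I contigs lay mainly in the first Trinity assembly, with 35, 11 and 9 contigs in the 3 assemblies, whereas those of IIb were even, with 7, 8 and 7. Subgroup IIa had 6, 0 and 2. Since similar sequences were collapsed after the assemblies were merged, a contig kept from one assembly can also stand for its copy in another.

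Trinity names each contig by a number after DN, a number after c, a gene and an isoform. This allowed variants of the same Trinity gene to be told from separate ones. A component here is all contigs of an assembly with the same DN number, whatever their c number. It can therefore pool contigs with different c numbers, whereas a Trinity gene shares both numbers. The 132 Trinity contigs of WRKY factors lay in 88 Trinity genes and 66 components. Of these Trinity genes, 62 had 1 contig and 26 had more, with at most 5 contigs in a Trinity gene of WRKY20. The 37 WRKY genes with a Trinity contig had a median of 2 Trinity genes, and 23 of them had several. WRKY6 had the most, with its 6 Trinity contigs in 6 Trinity genes but only 2 components, 1 in each Trinity assembly. WRKY40 had 6 Trinity contigs in 3 Trinity genes of 1 component. WRKY11, in contrast, had its 5 Trinity contigs in 5 Trinity genes and 5 components.

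Several components within the same assembly cannot come from merging assemblies. This was the case for 13 WRKY genes, 11 in the first Trinity assembly and 3 in the second, with WRKY20 in both. In the first Trinity assembly WRKY11 had 4 components, WRKY75 had 3, and WRKY2, WRKY3, WRKY4, WRKY20, WRKY28, WRKY33, WRKY39, WRKY41 and WRKY44 had 2 each. In the second, WRKY7, WRKY20 and WRKY35 had 2 each, and a component of WRKY7 there pooled contigs with different c numbers. Of the WRKY genes in the first Trinity assembly 32.4% had several components there, beside 34% of all genes. Whether separate components are separate willow genes or pieces of the same transcript was not tested, as the table holds no sequence or length.

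**Figure D3:**
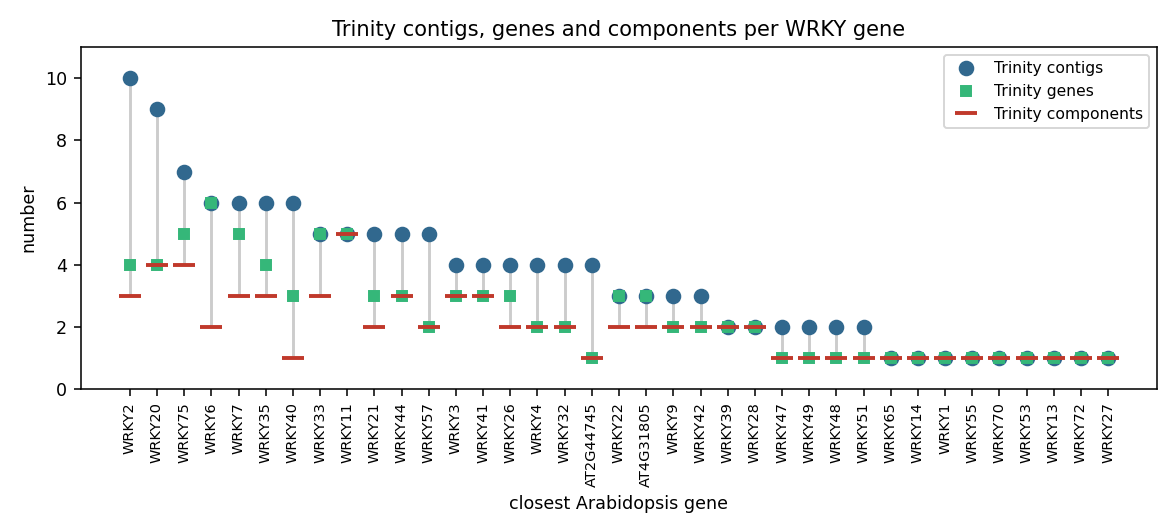
Trinity contigs (circles), Trinity genes (squares) and components (red bars) of the 37 WRKY genes with a Trinity contig, with their number on the vertical axis and genes ordered by contigs. For WRKY11 the marks coincide at 5, whereas WRKY6 falls from 6 Trinity genes to 2 components and WRKY40 from 6 contigs to 1 component.

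Some closely related members were joined in the same component. Of the 66 components 6 (9.09%) held more than 1 WRKY gene, with 23 contigs of 9 genes. They joined 6 pairs of genes, 5 within a group and 1 between groups. In group I, WRKY3 and WRKY4 lay together in 2 components of the first Trinity assembly and also shared a Trinity gene, and WRKY26 lay in 1 of these components. In subgroup IIe WRKY27 (AT5G52830) lay with WRKY65 (AT1G29280), and in group III WRKY41 lay with WRKY53. The pair from different groups was WRKY7 (IId) and WRKY35 (IIe), which lay together in 1 component of each Trinity assembly and also shared a Trinity gene. For WRKY3, WRKY4, WRKY7 and WRKY35 the contigs counted under each name are uncertain, since variants of the same Trinity gene were matched to different Arabidopsis codes. The other 5 genes shared a component but no Trinity gene.

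Components with WRKY contigs also held contigs of other genes, although contigs with different c numbers can be pooled in a component. Of the 66 components 18 (27.3%) held more than 1 code, compared with 12.6% of the 25858 components with a code in the whole assembly. The WRKY components also held more coded contigs, with a mean of 2.29 against 1.84. A component with more contigs has more chances to include a WRKY contig and a further code, and the shares were not adjusted for this. In 12 of them 19 contigs had another code than a WRKY gene, and 7 held 8 contigs without a code. WRKY9 lay in a component with AT4G02830 in both Trinity assemblies.

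In 3 cases the same parent transcript carried a pair of WRKY coding sequences, and both members of each pair matched the same gene. These were transcripts of WRKY2, WRKY4 and WRKY9, so that 6 contigs came from 3 transcripts. They made up 1.66% of WRKY transcripts, beside 1.83% of all coded transcripts with several coding sequences. Overall 13 WRKY contigs (7.07%) were not the first coding sequence of their transcript, against 11.8% of all coded contigs.

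Genes that act with WRKY factors in Arabidopsis were examined from a list of 31 regulators, partners and targets. Of these 21 were found, with 176 contigs and a median of 3 per gene found. Among the kinases, MEKK1 (AT4G08500), which acts upstream of MPK4 and binds WRKY53, had 78 contigs in 25 Trinity genes, with 26, 28 and 24 contigs in the 3 assemblies. It alone exceeded 13 contigs. MPK4 (AT4G01370), which holds WRKY33 in a complex, had 13 contigs, and MPK3 (AT3G45640) and MPK6 (AT2G43790), which phosphorylate WRKY33, had 8 and 6. MKK2 had 3 contigs and MKK4 had 2, whereas no contig matched MKK1 or MKK5. The flagellin receptor FLS2 had 2 contigs, both of the CLC assembly, and its co-receptor BAK1 had 13.

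The other partners of WRKY proteins had 1 to 6 contigs where they were found, around the median of 3 of all genes. Of the VQ proteins, SIB1 (AT3G56710) had 6 contigs, MKS1 (AT3G18690) had 2, and SIB2 (AT2G41180) and IKU1 (AT2G35230) had 1 each. WRKY33, which binds SIB1, SIB2 and MKS1, was found with all 3, whereas IKU1 was found without its partner WRKY10. HDA19, a histone deacetylase that binds WRKY38 and WRKY62, had 4 contigs although neither of these WRKY members was found. UPL5, the ubiquitin ligase of WRKY53, had 3 contigs, and TTG1, which acts with WRKY44, had 2. NPR1, the salicylic acid co-activator upstream of WRKY70, had 1 contig. IKU2 and RPS4 were not matched.

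Among the targets, some genes of transport and metal tolerance were found, whereas those of camalexin and salicylic acid synthesis were not. PHO1 (AT3G23430), which loads phosphate into the xylem and is a target of WRKY6 and WRKY42, had 11 contigs. PDR8 (AT1G59870), the cadmium exporter activated by WRKY13, had 10, with 3, 4 and 3 in the 3 assemblies. GSH1 (AT4G23100), which makes the glutathione precursor γ-glutamylcysteine, had 7. ABI5 had 2 contigs and the malate transporter gene ALMT1 had 1. No contig carried the code of PAD3 or CYP71A12 (camalexin synthesis), ICS1 (salicylic acid synthesis), FRK1 (a flagellin-responsive kinase), PHT1;1 (phosphate uptake) or ABI4 (ABA response). WRKY33 and WRKY28 were thus found without contigs under the codes of PAD3 and ICS1, their respective targets. As for the WRKY members, a listed gene without a contig may have no close counterpart in willow. It may also have been assigned to a related code or not assembled from roots, so its absence does not show that a pathway is missing.

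**Figure D4:**
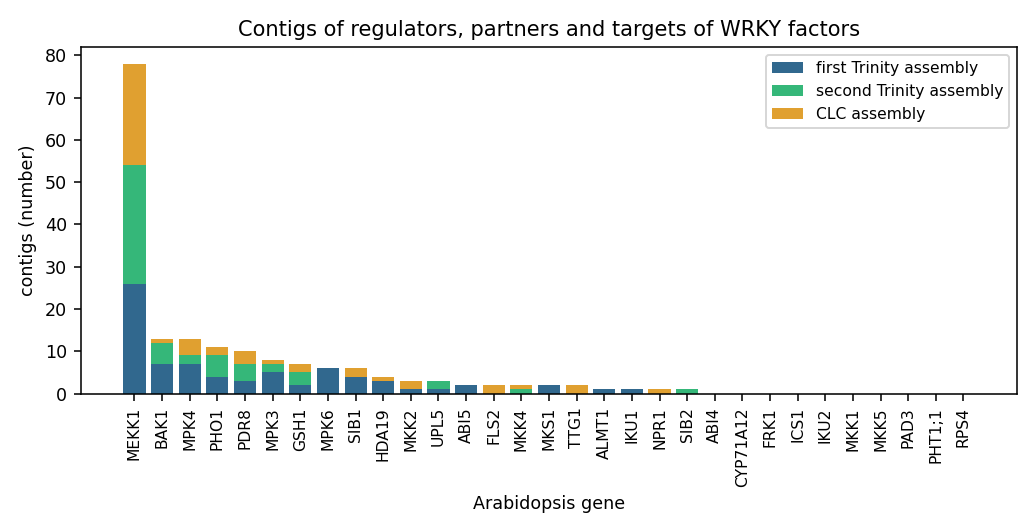
Contigs of the 31 regulators, partners and targets of WRKY factors, with the number of contigs on the vertical axis and colours for the assemblies. MEKK1 reaches 78 contigs, the next genes reach 13, and the 10 genes at the right had none.

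Contigs per gene were set beside those of MYB, NAC and AP2/ERF factors found by their descriptions or symbols, none of which shared a contig with the WRKY family. WRKY and NAC genes both had a median of 4 contigs, MYB genes had 3 and AP2/ERF genes had 2. The share of genes with more than 1 contig was 90.5% of 42 WRKY genes, 90.6% of 53 NAC genes, 76.7% of 90 MYB genes and 77.6% of 67 AP2/ERF genes. WRKY genes were found in all 3 assemblies in 38.1% of cases, NAC genes in 28.3%, MYB genes in 16.7% and AP2/ERF genes in 11.9%. The WRKY maximum was 11 contigs, whereas the searches for the others reached 29 for MYB (myb domain protein 5), 25 for NAC and 27 for AP2/ERF. The 27 contigs belonged to a gene described as AP2/B3-like, and such genes can carry a B3 domain without an AP2 domain. Without the 15 genes described in this way the AP2/ERF median remained 2 and the maximum was 15, over 52 genes. The 25 contigs of the NAC search belonged to a nascent polypeptide-associated complex subunit, which is not a NAC domain factor. Without the 2 genes of that complex the NAC median remained 4, the maximum was 24 and 90.2% of 51 genes had more than 1 contig. These are descriptions of the same assembly, and no difference between the families was tested.

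**Figure D5:**
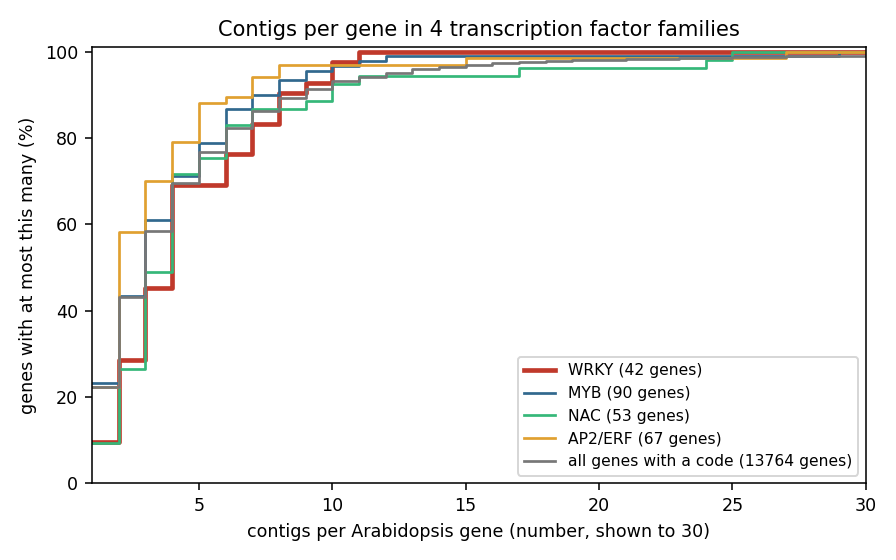
Cumulative share of genes (vertical axis, %) with at most a given number of contigs (horizontal axis, shown to 30), for WRKY, MYB, NAC and AP2/ERF genes and all genes with a code. The WRKY line starts low, with 4 of 42 genes at 1 contig, and reaches 100% at 11 contigs, before any other line. It also covers the fewest genes of the lines shown.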

How the data were processed

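Root RNA of 12 libraries, 3 per group, was sequenced by the authors. The authors assembled the trimmed reads with CLC Genomics Workbench and Trinity, merged these, found coding regions with TransDecoder, collapsed similar sequences with cd-hit-est and matched the contigs through the *S. purpurea* transcriptome to Arabidopsis gene models. The deposited annotation gives names and text for the pooled assembly, with 5 columns and 0 values per library. The submitters' processing notes name edgeR (v. 3.28.1), whose read counts were not used here, so depth per library and its precision cannot be computed from the table and the planned comparisons between groups were not run.

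Contigs, transcripts, Trinity genes, components and Arabidopsis genes were counted from names and codes, with contigs lacking a Trinity name taken as CLC contigs. Members were grouped with a list of 72 numbered Arabidopsis WRKY members (numbers, groups and best-known roles) and set beside a list of 31 regulators, partners and targets. Both lists were compiled from general knowledge of Arabidopsis, and the members and lists were chosen with earlier results of these data known. Genes named with full values were the 10 with the most contigs, those with 1 contig, those of the second list, and the members of each WRKY group by range. Other genes were named after their values were seen. Alternatives were other units of counting, single columns searched, each assembly alone, another group for WRKY45 and members without resistance-protein fusions. The counting was tested on simulated data. The work was done in Python 3.11.15 with SciPy 1.17.1, NumPy 2.4.6, pandas 2.3.3 and matplotlib 3.10.9.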

Additional observations from a re-analysis of the deposited data

How the results depend on the processing

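Of 75 alternative values for 15 results, 58 stayed within 1.5 times the value given (counts and medians) or within its exact 95% binomial interval (shares), and 17 moved. The interval served only as a margin for labelling shares. Contigs of the same gene are not independent and the alternatives reuse the same contigs, so it measures no error. Counted as Trinity genes, which leaves out the 52 CLC contigs, the 184 contigs became 88. Over the 37 WRKY genes with a Trinity contig the median was then 2, and the share with more than 1 was 62.2%. Over the WRKY genes found in each, the first Trinity assembly alone gave a median of 2 contigs and 67.6% with more than 1. The second alone gave 1 and 45.5%, and CLC alone 1 and 33.3%. The second Trinity assembly alone gave 22 WRKY genes. With components in place of contigs, an alternative chosen after seeing the data, the median was 2 and the share 59.5%, again over the 37 genes with a Trinity contig. With numbered genes only, also chosen after seeing the data, they were 4 and 90%. The share of contigs in group I (29.9%) was 38.9% with the first Trinity assembly alone and 17.3% with CLC alone. In the second Trinity assembly alone subgroup IIa had 0% and IIb 19%, and in CLC alone IIc had 25.0%. The share of WRKY genes with more than 1 contig was thus lower in each assembly alone than over the 3 together. Splitting merged contigs by assembly leaves no gene with more contigs than before, and each share covers only the genes found in that assembly. Whether this fall is particular to WRKY genes was not tested. Placing WRKY45 in IIc or leaving out the resistance-protein fusions changed none of these values, as no contig matched those genes. Moving WRKY45 would still change the number of members listed, and so the share of members found, in group I and IIc. No paired analysis was possible because no library has a value of its own in the file, and for the same reason no replicate could be left out.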

Other observations

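The 42 WRKY genes were spread unevenly over the Arabidopsis chromosomes, by the chromosome in their code. Chromosomes 1 to 5 had 7, 10, 2, 13 and 10 genes, with 36, 43, 6, 60 and 39 contigs. Chromosome 4 thus had 31% of the WRKY genes, beside 15.2% of all genes found, and chromosome 3 had 4.76% beside 19.6%. The members on chromosome 3 were WRKY39 and WRKY70. The genes of chromosome 4 include AT4G31805, whose description may not hold. These positions are those of the Arabidopsis genes, not of the willow genes, and the difference was not tested. The 72 listed Arabidopsis members were not counted by chromosome, so the spread cannot be read as a trait of the members found in willow. Genes described as VQ motif-containing proteins, a list chosen after seeing the data, numbered 18 and had 36 contigs, with a median of 2, a maximum of 5 (AT1G28280) and 8 genes with 1 contig.

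The 19 contigs of other genes that lay in components with WRKY contigs had varied descriptions. WRKY70 lay with AT1G79180, described as myb domain protein 63, WRKY49 with the SAUR-like auxin-responsive gene AT3G12830, and WRKY42 with the caleosin-related gene AT1G70670. In the first Trinity assembly the component of WRKY9 and AT4G02830 also held AT5G51190, an integrase-type DNA-binding factor. WRKY75 lay with the rhomboid-like gene AT5G07250 in 1 of its 4 components. Such components can pool contigs with different c numbers, and whether they join overlapping transcripts or related sequences was not tested.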
